A study of Xenopus laevis with 4 samples.

Results

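The rule collected the cyclins, cyclin-dependent kinases (CDKs) and their inhibitors, the Polo, Aurora and NEK kinases, the spindle checkpoint, the anaphase-promoting complex (APC/C) and the centromere and kinetochore proteins by gene symbol. It matched 121 of the 45098 gene entries, and no expression value was used to choose them. RNA came from X. laevis embryos at stage 10.5, the early gastrula. The TKD group (2 samples of 10 embryos) had received, at the 1-cell stage, a mixture of antisense oligonucleotides against TBP, TBP2 and TLF, the TATA-binding protein and its family members (0.8 ng of that against TBP, with larger amounts of the others by the study's methods), and the control group (2 samples of 10 embryos) had received water. No transgene or mutation was involved, every sample was a pool of whole embryos, and ribosomal RNA had been depleted from total RNA before library preparation. The paper reports that TKD embryos arrested at this time and failed to start gastrulation. Differences due to this arrest and to the knockdown itself therefore cannot be told apart. Since whole embryos were pooled, fewer cells of a type and less RNA per cell cannot be told apart either.

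The 3 oligonucleotides that define the TKD group are shown because each comparison rests on them. They are DNA in which the outer linkages were modified with dimethyl-ethylene-diamine to make them stable, while the central linkages were left unmodified so that RNase H can cut the paired mRNA. Capitals mark the stretch joined by unmodified linkages, and all are written 5′ to 3′.
TBPAS3: tgcatTTCGCGCTctaag
TBP2-AS167: tcatcGTATGGAgtcat
TLF-AS93: atatcCAGTGCCacatc
The first is 18 nucleotides long with 7 unmodified linkages, and the others are 17 nucleotides long with 6.

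CDKs act only when bound to a cyclin, and the rise and fall of A-type, B-type and E-type cyclins drives entry into and exit from S phase and mitosis. At mitosis Polo and Aurora kinases build the spindle, the spindle checkpoint holds the APC/C inactive until every kinetochore is attached, and the APC/C then marks cyclin B and securin for destruction. The Xenopus egg carries large stores of the mRNAs for these proteins and divides rapidly without gap phases until the mid-blastula transition, when zygotic transcription starts and the cycles lengthen. Cyclin A1 is the maternal A-type cyclin, whose mRNA is normally lost around gastrulation, and cyclin A2 is the form that embryonic cells make afterwards.

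The table holds 1 mean per group and gene, from which the reads of both libraries of each group were recovered for every member. The libraries are called deeper and shallower, since nothing ties them to a replicate number. The recovered reads summed to 2523060 and 1414476 in the TKD libraries and to 5222085 and 3436848 in the control libraries, so the control libraries were the deeper ones. Transcript levels below are reads divided by the size factor of the library, and values of 4 libraries are given in the order TKD deeper, TKD shallower, control deeper and control shallower. Whether replicate samples were taken from different clutches is not in the labels. All p-values therefore reflect variation among these 4 samples, and part of it may be technical. A gene was called higher or lower in TKD embryos at a Benjamini-Hochberg adjusted p under 0.1 (limma-voom over 17026 genes). L and S at the end of a symbol mark the copies, or homeologs, of a gene on the long and short chromosomes of this allotetraploid frog, and homeologs so alike that a read fits both may have been counted unevenly. Of the knocked-down genes, tbp.S stood at 32.9, 19.8, 57.8 and 87.7 and was called lower (log2 fold change −1.32 ± 0.47 SE, n = 2 per group, adjusted p = 0.0943), a call lost without the deeper TKD (0.139), the shallower TKD (0.259) or the shallower control library (0.172). The other homeolog, tbp.L, was not called (−0.51 ± 0.67), and tbpl2.L, which encodes TBP2, had too few reads to test (5, 1, 13 and 4). No entry with the symbol tbpl1, for TLF, was found. Of 11 early gastrula marker genes looked for, 9 were found, with 20 entries, of which 19 had reads in all 4 libraries. In TKD embryos 5 of these 20 were called lower and 7 higher, 7 were not called and 1 was not tested. Over all genes tested, 14.3% were called lower and 10.3% higher. The part of such tissue differences in the results below was not tested.

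Cell cycle transcripts did not move together in TKD embryos. Of the 103 members with enough reads to test, 24 were higher (23.3%, against 10.3% of all genes tested) and 16 were lower (15.5%, against 14.3% of all genes). The other 63 were not called, with log2 fold changes between −1.11 and 1.01. The remaining 18 members did not reach 10 reads in 2 libraries, and of these cdk6.S, cdkn2b.S and cdc20b-like.L had no reads, while cdkn2b.L had 2 and 12 reads in the TKD libraries and none in the control libraries. The median log2 fold change was 0.26 over the members (quartiles −0.44 and 0.74) and 0.04 over all genes. Levels in both TKD libraries exceeded those in both control libraries for 44 members (42.7%, against 29.9% of all genes) and fell short of them for 24 (23.3%, against 30.7%), which includes all 40 members called. With at least 50 reads in 2 libraries, 23 of 93 members were higher and 16 lower, against 14% and 20.9% of all genes. Library totals were taken as sums of the recovered reads. Scaling by these library totals moved the median of all genes by 0.18 to 0.21 and that of the members to 0.44. It gave 37 members higher and 9 lower, so that the share of higher among called members went from 60% to 80.4%. Calls over all genes shifted the same way, to 16.2% higher and 11.6% lower of those tested.

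The calls were unevenly firm. Leaving out each library in turn, 6 higher calls (ccna1.L, ccna1.S, ccnb1.2.S, fzr1.L, plk2.L and cdkn1a.L) and 7 lower calls (bub3.L, bub1.L, ttk.S, cenpf.L, ndc80.S, ccne2.L and ccne2.S) held in all 4 fits. Without the deeper TKD, shallower TKD, deeper control and shallower control library, the members' median log2 fold change was 0.20, 0.33, 0.23 and 0.27. That of all genes was 0.03, 0.04, 0.04 and 0.06. Each of these fits left 1 library in 1 of the groups, and fewer members, and fewer of all genes, were called than with all 4 libraries. A call could be lost there although the log2 fold change hardly moved, as for anapc1.S (−0.63 to −0.73 in the 4 fits). A lost call therefore does not by itself show that a difference rested on the library left out. Without the deeper TKD library the share of members called higher was near that of all genes. The libraries differed within the groups too. Of the 24 members called higher, 16 were highest in the deeper TKD library and lowest in the deeper control library. The same order within each group held for 8 of the 16 called lower and 27 of the 63 not called. This order was not counted over all genes, so whether the members stand out in it is not known. Across 12019 genes the difference of deeper and shallower library in TKD correlated negatively with that in control (r = −0.487).

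**Figure D1:**
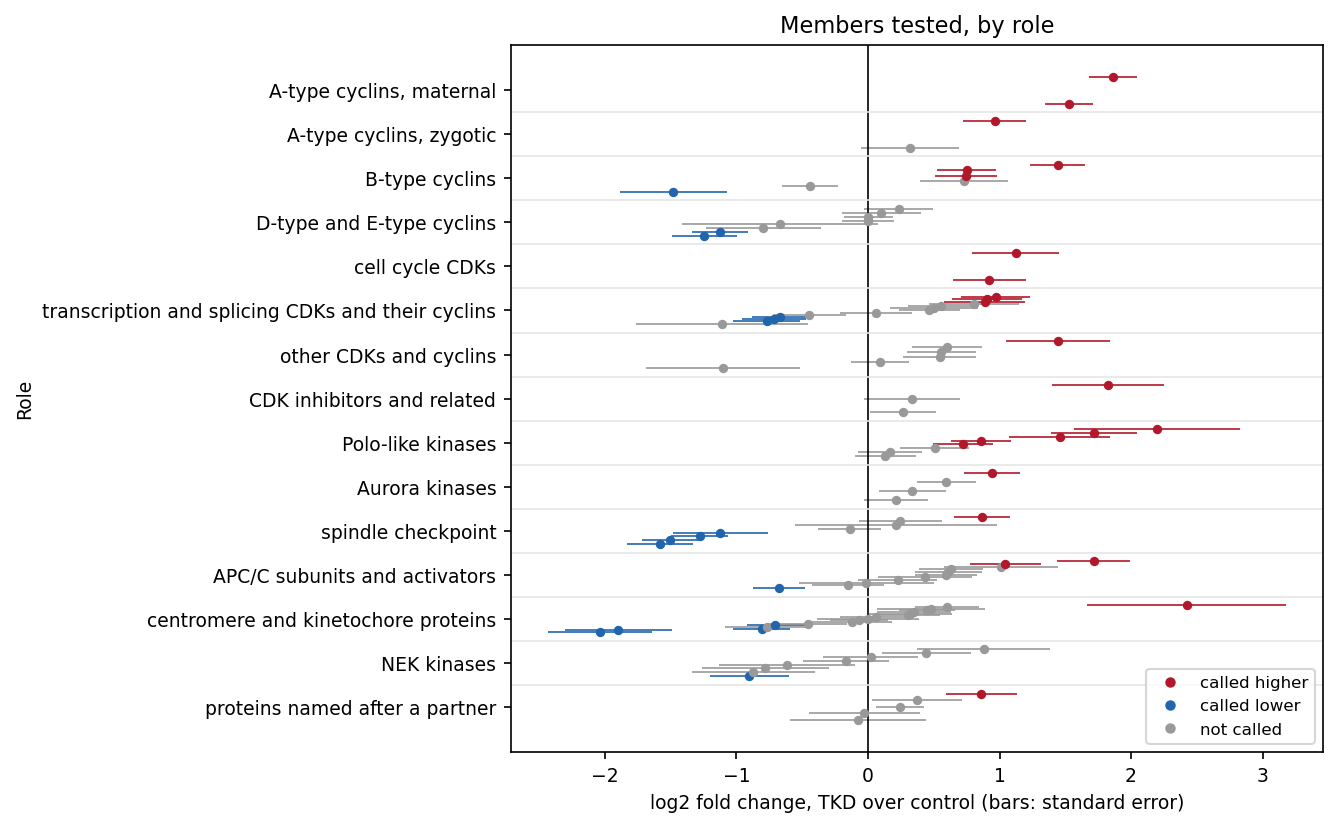
Log2 fold changes of TKD over control embryos for the 103 members tested, by role, with bars for the standard error and colours for the call (adjusted p under 0.1). All 5 called Polo-like kinase entries lie to the right of 0, 4 of the 5 called spindle checkpoint entries lie to the left, and the D-type and E-type cyclins hold no higher call.

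Both ccna1 entries, for the maternal cyclin A1, were higher in TKD than in control embryos, with the lowest adjusted p of all members. The ccna1.L transcript stood at 1688, 1784, 506 and 449 (log2 fold change 1.86 ± 0.18 SE, adjusted p = 0.0027). The ccna1.S transcript stood at 1362.5, 1429, 517 and 450.2 (1.53 ± 0.18, adjusted p = 0.0038). For both homeologs the TKD libraries agreed closely, lay far above the control libraries, and the log2 fold change ranged from 1.78 to 1.95 and from 1.43 to 1.63 when 1 library was left out. The zygotic cyclin A2 was less clear. Its S homeolog rose, with ccna2.S at 1681, 1309.7, 635 and 919.9 (0.96 ± 0.24, adjusted p = 0.034), but the call was lost without the deeper TKD library (adjusted p = 0.131) and without the deeper control library (0.116). The L homeolog, ccna2.L, stood at 2443, 1313, 1035 and 2013, with overlapping groups (0.32 ± 0.37, adjusted p = 0.59), and its log2 fold change was below 0 without the deeper TKD library (−0.14) or without the deeper control library (−0.16).

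A share of reads within a library does not depend on the scaling, so ccna1 and ccna2 were also compared that way. Cyclin A1 supplied 42.5% (95% Wilson interval 41.4 to 43.6) and 55.1% (53.4 to 56.7) of all A-type cyclin reads in the TKD libraries and 38.0% (36.7 to 39.3) and 23.5% (22.3 to 24.7) in the control libraries. The groups did not overlap, but the deeper TKD library lay nearer to the deeper control library than to the other TKD library. These intervals cover counting error only.

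By textbook origin, the maternal type (ccna1 and ccne1) had 4 entries, of which both ccna1 entries rose and neither ccne1 entry was called. The zygotic type (ccna2, ccnd1, ccnd2 and cdkn1a) had 7 tested entries, of which ccna2.S and cdkn1a.L rose and none fell. The higher calls lay in both types (50% of the maternal and 28.6% of the zygotic entries, against 10.3% of all genes tested), on few entries. Both ccna1 calls held without any 1 library, as did that of cdkn1a.L on few reads, whereas that of ccna2.S did not.

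**Figure D2:**
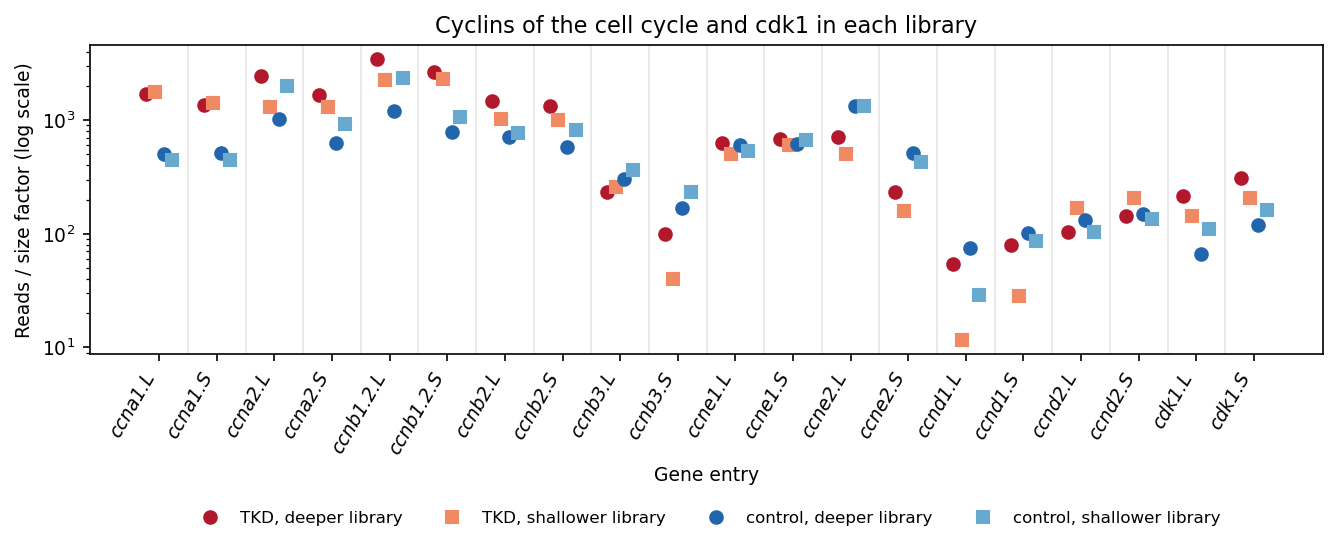
Transcript levels (reads divided by size factor, log scale) of cell cycle cyclins and cdk1 in the 4 libraries, 1 point per library. For ccna1.L and ccna1.S both TKD points lie above both control points, for ccne2.L and ccne2.S both lie below, and for ccne1.L and ccne1.S the groups overlap.

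The B-type cyclins form with cdk1 the kinase that drives mitosis. Of their 6 entries 3 rose and 1 fell (50% and 16.7%, against 10.3% and 14.3% of all genes). The ccnb1.2.S entry, a cyclin B1 gene, stood at 2682, 2317, 796 and 1064 (1.44 ± 0.21, adjusted p = 0.0061). The groups were well apart, whereas its homeolog ccnb1.2.L stood at 3436, 2280.3, 1203 and 2377 and overlapped (0.73 ± 0.34, adjusted p = 0.176). The log2 ratio of L to S reads of this pair was not called by limma (−0.71 ± 0.25, adjusted p = 0.172), so a difference between the homeologs was not shown. Cyclin B2 rose in both homeologs, with log2 fold changes of 0.75 for ccnb2.L (adjusted p = 0.058) and 0.74 for ccnb2.S (0.071). These calls were lost without the deeper TKD library (0.277 and 0.279) or the deeper control library (0.122 and 0.302). Cyclin B3, a more distant B-type cyclin, went the other way. The ccnb3.S transcript stood at 99.7, 39.7, 169.9 and 232 and was lower (−1.48 ± 0.41, adjusted p = 0.047), although not without the shallower TKD library (−0.97, adjusted p = 0.137), while ccnb3.L missed the threshold (−0.44 ± 0.21).

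Of the E-type cyclins, partners of CDK2 at the start of S phase, both cyclin E2 entries fell and neither cyclin E1 entry was called. The ccne2.L transcript stood at 714, 509, 1327 and 1331 (−1.13 ± 0.21, adjusted p = 0.014), and ccne2.S at 231, 160.4, 511 and 431 (−1.24 ± 0.25, adjusted p = 0.016). Neither pair of groups overlapped. Cyclin E1, the maternal E-type cyclin, stood at 631, 509, 603 and 539 for ccne1.L and at 685, 604, 624 and 665 for ccne1.S, and the groups overlapped for both. Its log2 fold changes were 0.00 ± 0.20 and 0.00 ± 0.19, and their signs depended on the scaling and on the libraries used. Within libraries, cyclin E1 supplied 58.2% (56.2 to 60.2) and 62.4% (59.5 to 65.3) of E-type cyclin reads in the TKD libraries, against 40.0% (38.8 to 41.3) and 40.6% (39.0 to 42.2) in the control libraries, with no overlap of the intervals. This difference in shares was not tested. None of the 4 entries of the D-type cyclins ccnd1 and ccnd2, which link growth signals to the cycle, was called, and their log2 fold changes ranged from −0.80 for ccnd1.S to 0.23 for ccnd2.S.

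Cdk1, the mitotic CDK, rose in both homeologs, though less firmly than cyclin A1. The cdk1.L transcript stood at 214, 142, 65.9 and 110.4 (1.12 ± 0.33, adjusted p = 0.057), and cdk1.S at 308, 207, 119 and 164 (0.92 ± 0.28, adjusted p = 0.062). The TKD libraries lay above the control libraries, but both calls were lost without the deeper TKD library (0.293 and 0.333) or without the deeper control library (0.212 and 0.202). Of the CDK inhibitors, cdkn1a.L, for the p21 protein that p53 induces, rose from 17.7 and 11.7 in the control libraries to 54.5 and 52.9 in the TKD libraries (1.83 ± 0.43, adjusted p = 0.028). Its reads were few, 58, 32, 35 and 15, and cdkn1a.S had at most 6. The Xenopus inhibitor Xic1, listed as cdknx.L and cdknx.S, was not called (0.33 ± 0.36 and 0.26 ± 0.25). Cyclin G2, an atypical cyclin linked to cell cycle arrest, rose for ccng2.L (1.44, adjusted p = 0.047), which was lost without the deeper TKD (0.211) or the deeper control library (0.208), and ccng2.S was not called (0.54 ± 0.27).

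The 13 entries of CDKs and cyclins that act on RNA polymerase II or splicing were mixed. Of these 3 were higher and 3 lower (23.1% each, against 10.3% and 14.3% of all genes), and 7 were not called. Higher were ccnl1.L (0.97, adjusted p = 0.044) and ccnt1.L (0.91, 0.056), cyclins of splicing-linked CDKs and of the elongation kinase P-TEFb, and cdk10.L (0.89, 0.089). Lower were cdk13.L (−0.67 ± 0.21, 0.066), at 261, 311, 422 and 481, cdk12.S (−0.72, 0.087) and ccnt2.L (−0.77, 0.079). CDK12 and CDK13 are kinases of elongating polymerase, and cyclin T2 is the alternative P-TEFb cyclin. None of these 6 calls was firm. Each was lost in at least 3 of the 4 fits with 1 library left out, which leave 1 library in a group. The 3 lower calls were also lost under library totals (adjusted p = 0.134, 0.161 and 0.140 for cdk13.L, cdk12.S and ccnt2.L). The CDK-activating pair cdk7.L and ccnh.L (0.50 ± 0.33 and 0.47 ± 0.23) and cdk9.S (−1.11 ± 0.65) were not called. Nor were the homeologs ccnl1.S (0.56 ± 0.26), ccnt1.S (0.80 ± 0.34), ccnt2.S (0.06 ± 0.27) and cdk12.L (−0.45 ± 0.28).

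Of the 8 Polo-like kinase entries 5 were higher (62.5%, against 10.3% of all genes) and none was lower. Both plk2 entries, for a kinase of stress responses and centriole duplication, rose. The plk2.L transcript stood at 297, 165, 66.9 and 74.4 (1.72 ± 0.33, adjusted p = 0.014) and plk2.1 at 155, 112, 67.4 and 32.1 (1.46 ± 0.39, 0.042). The call of plk2.1 was lost without the deeper TKD library (0.185). Polo-like kinase 3 rose in both homeologs. The plk3.L transcript stood at 986, 673, 445 and 460.4 (0.86 ± 0.23, 0.042) and plk3.S was higher by 0.72 (0.068). Without the deeper TKD library the log2 fold changes fell to 0.57 and 0.45 (0.208 and 0.362), and plk3.S was also lost without the deeper control library (0.123). The centriole kinase entry plk4.S rose (2.20 ± 0.63, 0.053) on only 27, 14, 9 and 8 reads, and was lost in each fit without a control library (0.310 and 0.134). Without a TKD library it was not tested. Its homeolog plk4.L had more reads (115, 76, 168 and 97) and was not called (0.51 ± 0.26, 0.222). Plk1, the mitotic Polo kinase, did not separate the groups. Levels were 359, 337, 377 and 253 for plk1.L (0.17 ± 0.24, adjusted p = 0.671) and 573, 380.3, 449 and 416 for plk1.S (0.13 ± 0.24, 0.736).

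Of the 4 Aurora kinase entries 1 was higher (25%, against 10.3% of all genes). The Aurora kinase B entry aurkb.L, for the catalytic subunit of the chromosomal passenger complex, rose from 167 and 197 to 374 and 314 (0.94 ± 0.22, adjusted p = 0.027). Without the deeper TKD library the adjusted p was 0.141. The other 3 Aurora entries, aurkb.1, aurka.L and aurka.S, had log2 fold changes of 0.34, 0.60 and 0.21 and were not called. Among the NEK kinases 1 of 8 entries was lower (12.5%, against 14.3% of all genes). Its homeolog nek1.L (−0.16 ± 0.33) and nek2-like.1.S (−0.78 ± 0.48) were among those not called. The entry called lower was nek1.S, a kinase of cilia and DNA repair, at −0.90 (adjusted p = 0.079). Its call was lost in 3 of the 4 fits with a library left out, and under library totals (0.130).

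Of the 8 entries of the spindle checkpoint 4 fell (50%, against 14.3% of all genes), 1 rose (12.5%, against 10.3%) and 3 were not called. The 3 were bub3.S, mad2l1.L (0.21 ± 0.77, at most 29 reads) and mad2l2-like.S (0.25 ± 0.32). The last was grouped here by its symbol only. The bub3.L transcript, for the adaptor that brings BUB1 to kinetochores, stood at 271, 227, 654 and 777 (−1.50 ± 0.22, adjusted p = 0.0058). The bub1.L transcript, for the kinase itself, stood at 220.0, 198, 469 and 561 (−1.28 ± 0.22, 0.0098). The ttk.S transcript, for the kinase MPS1 that starts the checkpoint signal, stood at 89.3, 79.4, 266 and 248 (−1.58 ± 0.25, 0.0080). For these 3 genes the control libraries stood above the TKD libraries, with no overlap, and the calls held without any 1 library. The remaining one, mad1l1.L, for the kinetochore platform of MAD2, was lower at 37.6, 61.2, 88.2 and 116 (−1.12 ± 0.36, 0.073), but its call was lost without either TKD library (0.431 and 0.116) and without the shallower control library (0.111), and under library totals (0.105). The exception in the other direction was mad2l1.S, for MAD2 itself, which stood at 306, 271, 153 and 168 (0.87 ± 0.21, 0.033) and was lost without the deeper TKD library (0.163) or the deeper control library (0.102).

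**Figure D3:**
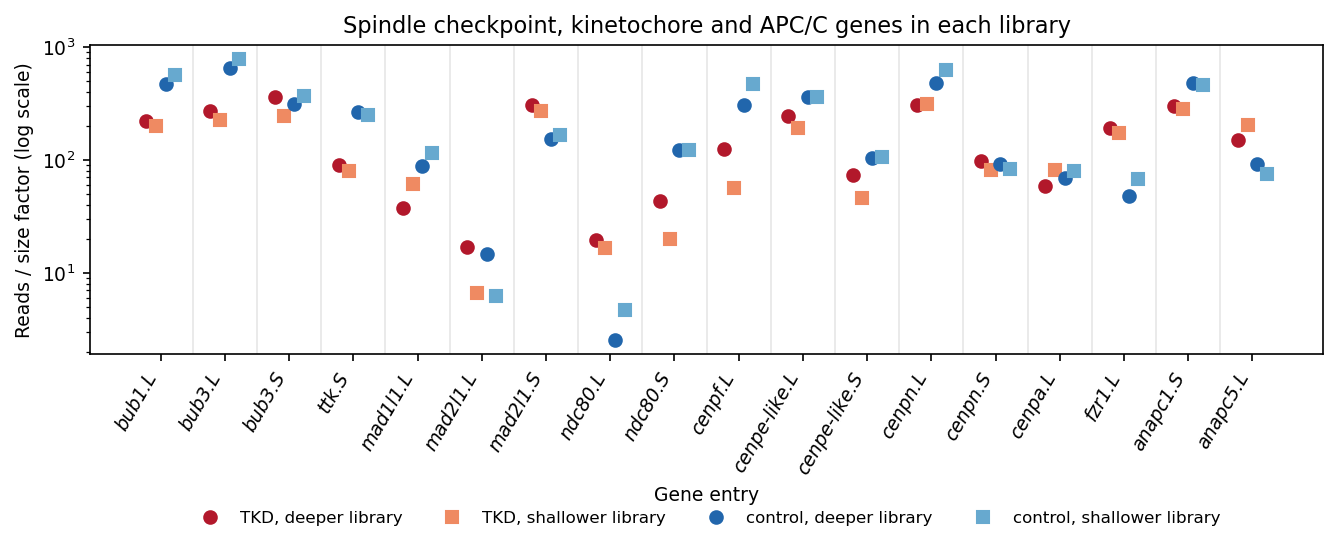
Transcript levels (reads divided by size factor, log scale) of spindle checkpoint, kinetochore and APC/C entries in the 4 libraries, 1 point per library. For bub1.L, bub3.L, ttk.S, ndc80.S and cenpf.L both TKD points lie below both control points, and for mad2l1.S and fzr1.L both lie above.

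Of 17 centromere and kinetochore entries, 4 fell (23.5%, against 14.3% of all genes), 1 (ndc80.L) rose (5.88%, against 10.3%) and 12 were not called. Their median log2 fold change was 0.001. The largest decrease was that of cenpf.L, for a large outer kinetochore protein, at 126, 56.2, 308 and 471 (−2.04 ± 0.40, adjusted p = 0.015). Next was ndc80.S, for the core of the microtubule-binding NDC80 complex, at 43.3, 19.8, 123 and 123 (−1.90 ± 0.41, 0.022). For both genes the control libraries lay above the TKD libraries. The cenpn.L transcript, for a protein that reads the centromeric histone, stood at 309, 314, 480.2 and 624 (−0.81 ± 0.22, 0.043), and cenpe-like.L, for a kinesin-like motor, at 244, 193, 363 and 358 (−0.70 ± 0.22, 0.064). These last calls were lost in 3 of the 4 fits with a library left out, with adjusted p up to 0.152 and 0.228, and cenpe-like.L also under library totals (0.123). The S homeologs of both, cenpn.S (0.06 ± 0.27) and cenpe-like.S (−0.77 ± 0.32), were not called. The centromeric histone cenpa.L was not called (−0.12 ± 0.31), and the inner kinetochore entries cenpi.L (−0.07 ± 0.22, and 0.11 under library totals), cenph.L (0.45 ± 0.21) and cenpc1.L (0.30 ± 0.25) were not called either.

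The APC/C gave 2 higher (18.2%, against 10.3% of all genes), 1 lower (9.09%, against 14.3%) and 8 not called of 11 entries tested. The activator fzr1.L, for CDH1, which keeps the APC/C active in G1, stood at 192, 172, 48.2 and 67.3 (1.72 ± 0.28, adjusted p = 0.0084), and its TKD libraries lay far above the control libraries. The subunit anapc5.L stood at 151, 205, 91.3 and 74.4 (1.04 ± 0.27, 0.039), which was lost without the shallower TKD library (0.149). The scaffold subunit anapc1.S stood at 302, 281, 477 and 459 (−0.68 ± 0.19, 0.054), which was lost in 3 of the 4 fits with a library left out, with adjusted p up to 0.171, and under library totals (0.112). A relative of the activator CDC20, cdc20b-like.L, had no recovered reads in any library, and cdc20 itself had no entry among the members. Of the 5 tested proteins named after a partner in the cell cycle 1 was higher (20%, against 10.3% of all genes). This was cdkn2aip.L (0.86, adjusted p = 0.068), and its call was lost without either TKD library or the deeper control library. The homeolog cdkn2aip.S was not called (0.37 ± 0.34).

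In 31 homeolog pairs both entries were tested. Both were called in the same direction in 5 pairs (16.1%, against 11.9% of 3669 pairs over all genes), namely ccna1, ccnb2, cdk1, plk3 and ccne2. Of the others, 15 pairs had 1 entry called (48.4%, against 28.6% of all pairs), 10 had none (32.3%, against 59.1%), and 1 pair, ndc80, was called in opposite directions (3.23%, against 0.463% of all pairs). In a test of the L to S read ratio within each library, added after the values were seen, 2 of the 31 pairs differed between the groups (6.45%, against 6.87% of all 3669 pairs). The share of member pairs was thus near the background, and the 2 pairs are given as values. For bub3 the log2 ratio changed by −1.34 ± 0.22 (adjusted p = 0.031): bub3.L supplied 42.9% (39.2 to 46.6) and 47.9% (42.2 to 53.7) of bub3 reads in the TKD libraries and 67.8% (65.7 to 69.8) and 67.9% (65.5 to 70.2) in the control libraries. The bub3.S transcript stood at 361, 246, 311 and 367 and was not called (−0.14 ± 0.24). For ndc80 the log2 ratio changed by 4.35 ± 0.85 (adjusted p = 0.049). The ndc80.L share was 31.3% (21.5 to 43.2) and 45.5% (26.9 to 65.3) against 2.02% (0.868 to 4.65) and 3.68% (1.70 to 7.80), on 21, 10, 5 and 6 reads of ndc80.L (2.42 ± 0.76, adjusted p = 0.068). The ndc80.L call was lost without the deeper (0.410) or the shallower control library (0.211), and neither it nor the ratio was tested without a TKD library. The ndc80 ratio was not called without the deeper (0.228) or the shallower control library (0.226), and bub3 was likewise lost there (0.143 and 0.226), although its log2 ratio stayed between −1.49 and −1.20 in all 4 fits.

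**Figure D4:**
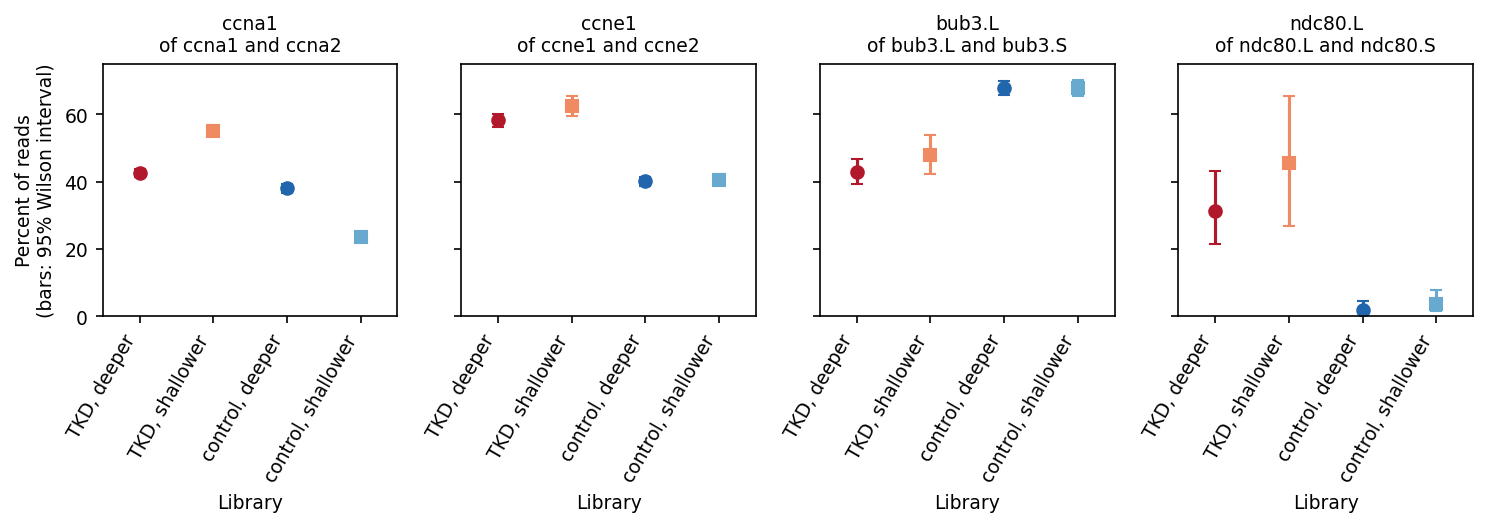
Percent of reads in each library from ccna1 among A-type cyclins, from ccne1 among E-type cyclins, and from the L homeolog of bub3 and of ndc80, with 95% Wilson intervals. The TKD libraries lie above the control libraries for ccna1, ccne1 and ndc80.L and below them for bub3.L.

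**Figure D5:**
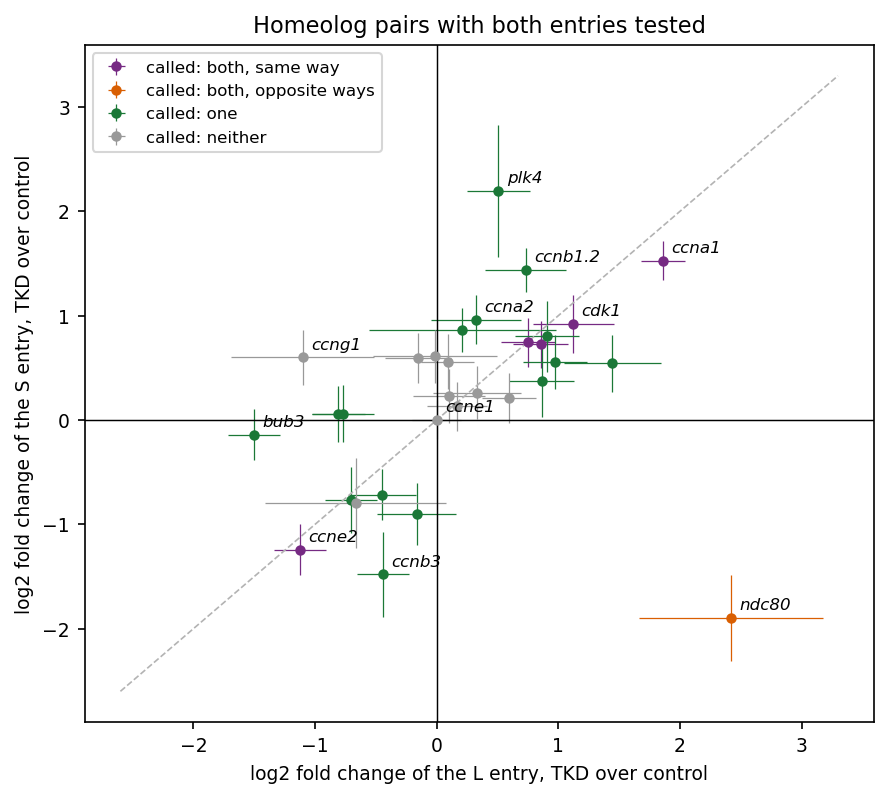
Log2 fold change of the L entry against that of the S entry for 31 homeolog pairs, with standard errors on both axes and colours for which entries were called. ndc80 lies off the dashed line of equal change with opposite signs, whereas ccna1, cdk1 and ccne2 lie near it.

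The genes that act around these members were compared from lists of checkpoint and cohesion genes, kinetochore partners, passenger proteins and cell cycle transcription factors. Of 102 tested, 10 were lower (9.8%) and 11 higher (10.8%), against 14.3% and 10.3% of all genes, and the median log2 fold change was 0.09. Separase, the protease that releases sister chromatids, fell for espl1-like.L, at 170.2, 136, 506 and 611 (−1.84 ± 0.24, adjusted p = 0.0045), as did sororin, the cohesin protector, for cdca5.L (−1.08, 0.028). Their S homeologs were not called (−0.38 ± 0.21 for espl1-like.S and −0.76 ± 0.38 for cdca5.S). The APC/C inhibitor Emi2, known for holding eggs in meiotic arrest, rose in both homeologs, fbxo43-like.L (2.16 ± 0.33, 0.0072) and fbxo43-like.S (1.78 ± 0.37, 0.020). Of the checkpoint genes, both entries of the replication checkpoint kinase Chk1 rose, chek1.S by 1.76 (0.014) and chek1.L by 1.39 (0.025), and the CDK-activating phosphatase cdc25b.L fell (−2.00 ± 0.42, 0.020), while cdc25b.S missed the threshold (−1.83 ± 0.68, 0.106). Of 8 passenger complex entries tested, 2 rose (25%, against 10.3% of all genes) and 6 were not called. The cdca9.S transcript rose from 135 and 131 to 416 and 402 (1.62 ± 0.20, 0.0041). The survivin gene birc5.1.S rose by 1.04 (0.013), while birc5.1.L was not called (0.28 ± 0.30).

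Of 17 kinetochore partners tested only 1 was called, as lower (5.88%, against 14.3% of all genes), and their median log2 fold change was 0.22. This was the kinetochore scaffold Knl1, listed as casc5.S. It fell to 47.0 and 33.1 from 154 and 177 (−1.98 ± 0.34, adjusted p = 0.0099), and casc5.L was not called (−1.14 ± 0.63). Of the transcription factors B-Myb and FoxM1, which drive mitotic gene transcription, 1 entry each fell. The mybl2.1 transcript stood at 264, 243, 988 and 773 (−1.78 ± 0.22, 0.0040), and foxm1.S at 124, 147, 485 and 448 (−1.80 ± 0.23, 0.0041). The other B-Myb entry, mybl2.S, stood at 155, 119, 139 and 122 with overlapping groups and was not called (0.09 ± 0.25). Of 11 E2F entries tested 3 rose, where 10.3% of all genes were called higher. Among the 3 were e2f4.L by 1.89 (0.0099) and e2f1.L by 1.29 (0.022). The other 8 were not called, with log2 fold changes from −0.06 to 0.60. The oocyte kinase mos.L, which like Emi2 acts in meiotic arrest, rose by 0.99 (0.020). Of the cyclins outside the rule, the oocyte and embryo cyclin J entry ccnj.L fell (−1.02, 0.022), the cyclin D-binding protein gene ccndbp1.S fell (−1.44, 0.067) and cyclin C, ccnc.L, of the Mediator kinase, rose (0.65, 0.079). The other cyclin J homeolog, ccnj.S, was not called (0.15 ± 0.20). Of the 11 higher calls 9 and of the 10 lower calls 6 held in all 4 fits with a library left out. The exceptions were ccnc.L (adjusted p up to 0.285) and e2f4.S (0.262) among the higher and ccnj.L (0.118), ccndbp1.S (0.484), pds5a.S (0.283) and pds5b.S (0.194) among the lower calls.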

How the data were processed

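Reads of 75 nucleotides from rRNA-depleted libraries were mapped by the authors to assembly JGI 9.1 with STAR, allowing 1 mismatch, and the deposited table is that of DESeq. The sources used here name neither tool versions nor the read counting program. For each gene the authors deposited a signal value per group, a mean of size-factor-scaled reads over both libraries. Further columns hold the authors' own comparison (log2 fold changes, p-values and adjusted p-values) and an overall mean, and were not used.

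Each group mean adds whole reads of both libraries, each weighted by a constant step, and solving for the 2 steps returned whole reads and size factors (1.06 and 0.605 for TKD, 1.97 and 1.28 for control). Reads were solved for 45094 genes in TKD and 45088 in control, covering 94.6% and 89.2% of the signal. All members were solved. Library totals are sums over the 45088 genes solved in both groups, so they leave out part of the signal of each group. The part of the TKD signal left out in this way was not computed.

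Genes with at least 10 reads in 2 libraries (17026) were tested with limma-voom (limma 3.58.1, R 4.3.3) scaled by the recovered size factors, without covariates, and adjusted by Benjamini-Hochberg at an FDR of 10%. L to S ratios (pseudocount 0.5) were tested with limma, and read shares have 95% Wilson intervals (SciPy 1.17.1). The ratio test, the shares and their alternatives were chosen after the data were seen, and the members, roles and gene lists with earlier results of these data known. The scripts were tested on simulated data. Alternatives were library totals, medians of ratios, limma-trend with pseudocounts of 1 and 5, no filter, a minimum of 50 reads, thinning to 1414476 reads, homeologs added up, an adjusted p under 0.05, a replicate block and leaving out each library.

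Named are all called members, set cyclins, CDKs and mitotic genes whatever their values, and up to 4 called genes of each other list by lowest adjusted p. Some set genes, such as cdk2, cdk4 and bub1b, had no entry among the members. Full values are given for the 12 lowest adjusted p in each direction and for ccna1, ccna2, ccnb1, cdk1 and plk1. Apart from the read shares, levels were not compared between genes, since no transcript lengths were used. The shares are not corrected for transcript length either, so they serve to compare libraries and not genes. Promoter sequences were not analysed here.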

Additional observations from a re-analysis of the deposited data

How the results depend on the processing

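Scaling by medians of ratios, limma-trend with either pseudocount, no filter, at least 50 reads, thinning and adding up homeologs gave counts of called members within 1.5 times of 24 higher and 16 lower. Library totals gave 37 and 9, against 16.2% and 11.6% of all genes, and an adjusted p under 0.05 gave 14 and 9. Leaving out 1 library gave a median log2 fold change of the members from 0.20 to 0.33, against 0.03 to 0.06 for all genes. Each of these fits left 1 library in a group, and fewer members, and fewer of all genes, were then called. The recovered libraries carry no replicate number, so both pairings were fitted as a replicate block. Deeper with deeper gave 7 of 103 members higher and 7 lower, against 2.75% and 6.92% of all genes. Deeper with shallower gave 40 and 21, against 21.2% and 22.1% of all genes, and included all 40 calls of the unblocked fit. Across 12019 genes the difference of deeper and shallower library in TKD correlated with that in control at r = −0.487. For the other cell cycle genes, 11 higher and 10 lower became 19 higher under library totals, 5 lower in the deeper with deeper block, and 27 higher and 16 lower in the deeper with shallower block, and 9 to 15 higher and 8 to 13 lower with 1 library left out. The 2 homeolog pairs called by ratio became 0 to 4. The cause of these changes was not tested.

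Of the 64 member genes recomputed one by one under the alternatives, none that was called changed sign. With library totals 9 of the 103 members, none of them called, changed from below to above 0, with values from 0.012 to 0.18. Of these the log2 fold change was 0.041 for bub3.S, 0.052 for cenpa.L, 0.11 for cenpi.L and 0.18 for ccne1.L. For ccne1.L it was 0.0019 without a filter, 0.0016 in the deeper with shallower block and 0.016 after thinning. For ccne1.S it was −0.023 with medians of ratios, −0.0031 and −0.0030 with limma-trend, −0.00084 with at least 50 reads, and −0.0028 and −0.00042 in the blocks. With 1 library left out, signs also changed for aurka.S (−0.020 to 0.41), bub3.S (−0.45 to 0.10), ccna2.L (−0.16 to 0.80), ccnd1.L (−2.03 to 0.16), ccnd2.L (−0.19 to 0.51), ccne1.L (−0.16 to 0.15), ccne1.S (−0.092 to 0.088), cenpa.L (−0.30 to 0.16), mad2l1.L (−0.19 to 0.74), plk1.L (−0.11 to 0.46) and plk1.S (−0.18 to 0.41).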
